A study of Mus musculus with 10 samples.

Results

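Phototransduction has to be switched off and reset after each photon, and the genes that do this were followed here in light-damaged mouse retina. The 10 genes are *Grk1*, *Rcvrn*, *Rgs9*, *Rgs9bp*, *Pdc*, *Gucy2e*, *Gucy2f*, *Guca1a*, *Guca1b* and *Slc24a1*. They were taken by gene name from the 54532 genes of the deposited table, and all 10 are among the 24508 genes whose level was high enough to be tested. RNA-seq was done on neural retinas of 2-month-old BALB/c mice, an albino strain whose eyes lack the pigment that screens light. All mice were first kept in the dark for 12 hr. For 5 retinas they were then exposed to high-intensity light of 15000 lux for 1 day (LD), and the other 5 retinas are from mice under normal light of 200 lux (NL). The retina was sequenced whole, so a level is an average over photoreceptors and all other retinal cells. From such levels, fewer photoreceptors and less RNA per photoreceptor cannot be told apart. In retinal sections after 1 day of this light, the paper saw no obvious degeneration but more GFAP, a filament protein of reactive glia. Photoreceptor number in the sequenced retinas was not tested.

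In the dark, a rod holds its cGMP-gated channels open and takes up sodium and calcium. Light activates the visual pigment, which through transducin turns on a phosphodiesterase, cGMP falls and the channels close. Recovery needs the pigment to be phosphorylated and capped by arrestin, transducin to hydrolyse its GTP, and guanylate cyclase to make new cGMP. Because the exchanger keeps pumping calcium out while the channels are shut, calcium falls in light, and calcium sensor proteins use this fall to speed up both the shut-off and the synthesis of cGMP. Mutations in several of these genes cause retinal disease or slow recovery from light in humans.

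Sequence upstream of 3 of the genes is shown because these are the windows that hold TAATCC or its reverse complement GGATTA, a core that the photoreceptor transcription factor CRX is known to bind. Promoter windows of 300 bases from RefSeq (GRCm38.p6) were at hand for 7 of the 10 genes, and for *Rcvrn*, *Guca1b* and *Rgs9bp* none was at hand. The core was found on either strand in the windows of *Guca1a*, *Gucy2e* and *Gucy2f*, which is 3 of 7, and in 7.06% of all 32851 windows. Another short motif, TGCTGA or TCAGCA, part of the site bound by the rod factor NRL, was found in the windows of *Grk1* and *Rgs9*, 2 of 7, and in 19.5% of all windows. The bases from 150 to 21 before the RefSeq start are printed 5′ to 3′ on the strand of the gene, with the CRX core in capitals.
*Guca1a*, chr17:47400627-47400756, minus strand: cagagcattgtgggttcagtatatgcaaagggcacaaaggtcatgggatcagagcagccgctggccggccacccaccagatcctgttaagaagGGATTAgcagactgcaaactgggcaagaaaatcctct
*Gucy2e*, chr11:69237043-69237172, minus strand: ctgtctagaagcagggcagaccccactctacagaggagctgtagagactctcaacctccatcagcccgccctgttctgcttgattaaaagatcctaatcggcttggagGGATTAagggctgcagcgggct
*Gucy2f*, chrX:142196957-142197086, minus strand: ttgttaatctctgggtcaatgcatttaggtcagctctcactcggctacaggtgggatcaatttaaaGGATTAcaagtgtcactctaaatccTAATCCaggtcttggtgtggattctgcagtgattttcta
The core begins 57 bases before the start in *Guca1a*, 42 bases before it in *Gucy2e*, and 84 and 59 bases before it in *Gucy2f*, the only one of the 3 with a copy on each strand. These matches describe the letters of the windows and are not binding sites shown in these retinas.

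All 10 genes were lower in the LD retinas. A gene was called where limma, a linear model fitted across all genes tested, gave an adjusted p below 0.01 and the change passed 2-fold. All 10 were called lower, where 2.37% of all genes tested were called lower, 4.13% higher and 6.51% in either direction. Among the 5739 genes that averaged 10 FPKM or more under NL, the share called lower was 4.03%. FPKM are fragments per kilobase of gene, scaled for library size. Levels of different genes can be set side by side as far as the gene lengths used hold for retina. The median log2 fold change of the 10 genes on the log2(FPKM + 0.1) scale was -1.89, against -0.01 over all genes tested, and it ran from -2.19 for *Pdc* to -1.12 for *Rgs9*. Every LD retina was below every NL retina in all 10 genes, a separation found in this direction in 10.6% and in either direction in 22.4% of all genes tested. For each gene a two-sided exact permutation test over the retinas gave p = 0.00794, the smallest that 5 retinas against 5 allow. Between 1218 and 43767 reads per retina stood behind each value.

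**Figure D1:**
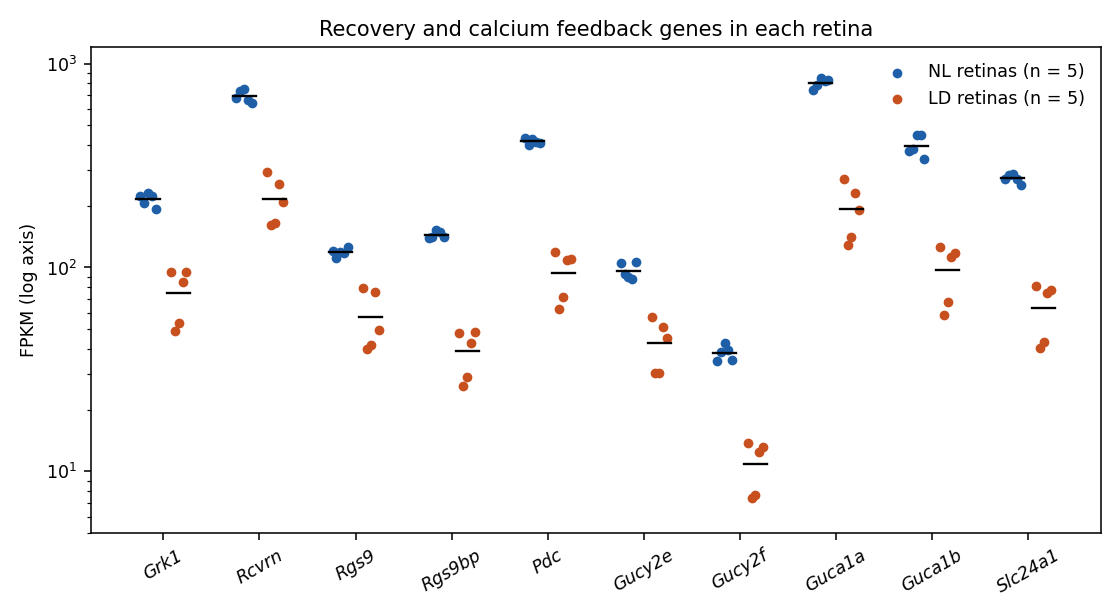
FPKM (log axis) of the 10 genes in the 5 NL retinas (blue) and the 5 LD retinas (orange), with 1 point per retina and the group mean as a line. In each gene the LD retinas lie below all NL retinas, and the gap is narrowest in *Rgs9*.

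Together the 10 genes made up 1.23% ± 0.0351 of the summed FPKM under NL and 0.368% ± 0.107 after LD (SD, n = 5 retinas each). Under NL, *Guca1a* was the most abundant, followed by *Rcvrn*, *Pdc*, *Guca1b*, *Slc24a1*, *Grk1*, *Rgs9bp*, *Rgs9*, *Gucy2e* and *Gucy2f*. Of these neighbours, *Guca1a* and *Rcvrn* overlapped in range, although *Guca1a* was above *Rcvrn* in all 5 NL retinas, and *Pdc* and *Guca1b* did not differ beyond their spread, with *Pdc* above in 3 of 5 retinas. The other neighbours did not overlap. After LD the order was *Rcvrn*, *Guca1a*, *Guca1b*, *Pdc*, *Grk1*, *Slc24a1*, *Rgs9*, *Gucy2e*, *Rgs9bp* and *Gucy2f*, and the ranges of most neighbours overlapped. Within single LD retinas, *Guca1b* was above *Pdc* in 3 of 5. *Slc24a1* was above *Rgs9* in 4 of 5, as was *Gucy2e* above *Rgs9bp*, and the other neighbours kept their order in all 5. *Rcvrn* was thus above *Guca1a* in each of the 5 LD retinas, the reverse of NL.

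The first step of recovery is done by the kinase that phosphorylates the activated visual pigment, the product of *Grk1* (chromosome 8, 13405081 to 13421951, GRCm38). In the NL retinas 1, 4, 5, 7 and 8, *Grk1* was at 223, 206, 231, 225 and 193 FPKM. The LD retinas 1, 4, 6, 7 and 8 had 95.004, 48.7, 53.1, 85.0 and 94.8 FPKM. LD-4 and LD-6 were thus lowest, and the other 3 LD retinas were still less than 50% of the lowest NL retina. The NL mean of 216 ± 15.7 FPKM stood against an LD mean of 75.3 ± 22.7 FPKM (SD, n = 5 retinas each). On the log2 scale this is a change of -1.57 (standard error, SE, 0.19, limma adjusted p = 1.64e-04).
*Rcvrn* (chromosome 11, 67695326 to 67703333) encodes recoverin, the calcium sensor that holds this kinase back while calcium is high. It stood at 675, 733, 753, 665 and 639 FPKM in the NL retinas and at 295, 161, 165, 256 and 209 FPKM in the LD retinas, in the same order of retinas. LD-4 and LD-6 were again lowest, with LD-8 closer to them than in *Grk1*. The log2 fold change was -1.71 (SE 0.17, limma adjusted p = 3.53e-05), and 31.3% of the NL mean was left. *Rcvrn* overlaps *Glp2r* on the opposite strand, whose level of 9.94 FPKM under NL and 6.83 FPKM after LD did not pass the test (limma adjusted p = 0.0534) and rests on 12.4 times fewer reads under NL.

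Transducin is switched off by a complex of RGS9, its membrane anchor RGS9BP and the G protein subunit encoded by *Gnb5*. *Rgs9* (chromosome 11, 109225355 to 109298129) was at 120.5, 112, 119, 118 and 126 FPKM in the NL retinas. In LD-1 and LD-7 it was at 79.4 and 75.9 FPKM, in LD-8 at 49.5 FPKM, and in LD-4 and LD-6 at 39.8 and 41.8 FPKM. Of the 10 genes it fell least, keeping 48.1% of its NL mean, with a log2 fold change of -1.12 (SE 0.19, limma adjusted p = 0.00138). It is also the gene nearest to the 2-fold limit: without LD-4 the change was -0.99998, just under 2-fold, and over the 8 retinas whose numbers both groups share it was -1.02 with an adjusted p of 0.0106 in limma (range over the alternatives 3.20e-04 to 0.0195).
The anchor gene *Rgs9bp* (chromosome 7, 35578993 to 35585582) was at 139, 141, 153, 149 and 141 FPKM in the NL retinas, slightly above *Rgs9* in each. After LD it was at 47.9, 26.2, 29.1, 42.6 and 48.2 FPKM in LD-1, LD-4, LD-6, LD-7 and LD-8, below *Rgs9* in each. It fell to 26.9% of the NL mean, a log2 fold change of -1.94 (SE 0.17, limma adjusted p = 1.52e-05). *Gnb5*, the third partner and not one of the 10 genes, fell between NL (186 ± 6.41 FPKM) and LD (84.6 ± 14.9 FPKM, SD, n = 5 each), with a log2 fold change of -1.15 (SE 0.11, limma adjusted p = 3.08e-05), close to that of *Rgs9*.
*Pdc* (chromosome 1, 150319417 to 150333906) encodes phosducin, which binds the beta and gamma subunits of transducin. Its NL values of 433, 400.4, 425, 413 and 409 FPKM were the tightest of the 10 genes, with a coefficient of variation of 3.14%. The LD retinas had 119, 62.5, 72.0, 108 and 109.5 FPKM, and the highest of them was 3.36-fold below the lowest NL retina, the widest gap of the 10. *Pdc* fell to 22.7% of its NL mean (log2 fold change -2.19, SE 0.17, limma adjusted p = 7.47e-06). An antisense gene, *2310030A07Rik*, and a transcript of uncertain status on the same strand, *Gm37764*, overlap *Pdc* and fell by 2.59 and 2.39 on the log2 scale (adjusted p = 8.68e-06 and 1.24e-05 in limma). Under NL, *Pdc* had 167 and 160 times their reads, and whether some reads of *Pdc* were counted as theirs was not tested.

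New cGMP is made by the membrane guanylate cyclases of *Gucy2e* and *Gucy2f*, of which *Gucy2e* is the main form in cones and acts in rods too. *Gucy2e* (chromosome 11, 69218117 to 69237036) was at 105, 92.5, 89.5, 87.5 and 107 FPKM in the NL retinas and at 56.9, 30.2, 30.3, 51.2 and 44.9 FPKM in the LD retinas. LD-4 and LD-6 were nearly equal and lowest, and the highest LD retina was 1.54-fold below the lowest NL retina. With 44.3% of the NL mean left, the log2 fold change was -1.22 (SE 0.18, limma adjusted p = 5.35e-04), the smallest after *Rgs9*.
*Gucy2f* (chromosome X, 142081160 to 142196931) was the least abundant of the 10 genes in both groups. It had 34.6, 38.3, 42.6, 39.3 and 35.1 FPKM in the NL retinas and 13.8, 7.40, 7.63, 12.5 and 13.1 FPKM in the LD retinas. It fell further than *Gucy2e*, to 28.7% of the NL mean, a log2 fold change of -1.84 (SE 0.18, limma adjusted p = 3.77e-05).

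The cyclases are driven by calcium sensors that activate them once calcium has fallen, encoded by *Guca1a* and *Guca1b*, neighbouring genes that lie 1590 bases apart on chromosome 17 and point toward each other. *Guca1a* (47394558 to 47400584, minus strand) was at 738, 789, 853, 819 and 826 FPKM in the NL retinas and at 271, 129, 141, 231 and 191 FPKM in the LD retinas. *Guca1b* (47385393 to 47392967, plus strand) was at 371, 380.1, 448, 444 and 338 FPKM and at 127, 58.1, 67.9, 112 and 118 FPKM. In both genes LD-4 and LD-6 were lowest, but LD-8 stood below LD-7 in *Guca1a* and above it in *Guca1b*. The log2 fold changes were nearly equal, -2.12 (SE 0.19, adjusted p = 2.08e-05) for *Guca1a* and -2.09 (SE 0.22, adjusted p = 5.42e-05) for *Guca1b* in limma.

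Calcium leaves the rod outer segment through the sodium, potassium and calcium exchanger of *Slc24a1* (chromosome 9, 64922861 to 64951607). Its NL values were 271, 286, 286, 272 and 253 FPKM. The LD retinas had 81.2, 40.4, 43.0, 75.2 and 77.6 FPKM, and the highest of these was 3.12-fold below the lowest NL retina. The NL mean of 274 ± 13.4 FPKM and the LD mean of 63.5 ± 20.04 FPKM (SD, n = 5 each) gave a log2 fold change of -2.17 (SE 0.20, limma adjusted p = 2.48e-05). This is within its SE of the value of *Pdc*, and without NL-1, NL-8 or LD-8 *Slc24a1* had the slightly larger change of these 2 genes.

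The LD retinas were not alike, and the 10 genes ranked them in nearly the same way. LD-4 was lowest in 10 of 10 genes and LD-6 next to it in 10 of 10, while LD-1 was highest in 9 and LD-8 in 1, *Rgs9bp*. The median difference from the NL mean over the 10 genes was -1.51 in LD-1, -1.68 in LD-7, -1.65 in LD-8, -2.30 in LD-6 and -2.40 in LD-4 on the log2 scale. Over 8 other photoreceptor genes (*Nrl*, *Nr2e3*, *Crx*, *Prph2*, *Rom1*, *Rp1*, *Reep6* and *Fscn2*), the same median was -1.68, -1.89, -1.73, -2.50 and -2.56 in that order of retinas, so the markers ranked the 5 LD retinas as the 10 genes did. The spread among LD retinas was larger than among NL retinas in all 10 genes, with coefficients of variation of 26.8% to 33.1% after LD and 3.14% to 12.1% under NL. LD-4 and LD-6, and likewise LD-1 and LD-7, are pairs whose reads differ little (a chi-square per gene of 2.52 and 3.41, against 15.2 to 38.5 for the other LD pairs), and the labels do not say whether such a pair came from 1 mouse. With the closest pairs averaged, all 10 genes were still called lower.

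**Figure D2:**
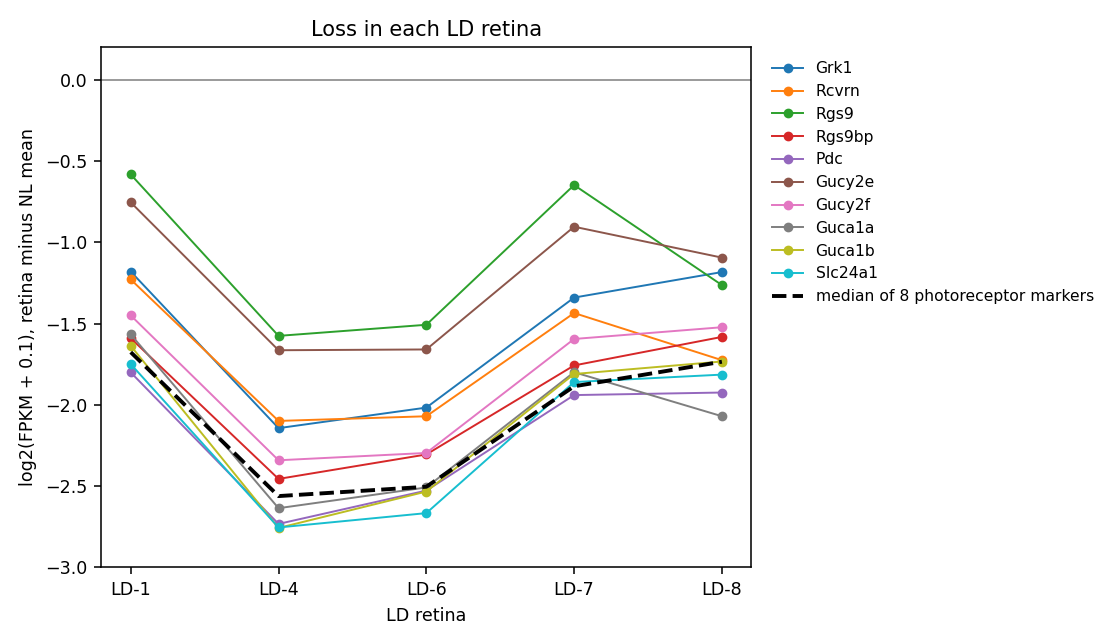
Difference of each LD retina from the NL mean, on the log2(FPKM + 0.1) scale, for the 10 genes (1 line per gene, joining its 5 LD values) and for the median of 8 photoreceptor markers (dashed). LD-4 and LD-6 are lowest in every line, and *Rgs9* and *Gucy2e* run above the other genes in each retina except LD-8, where *Grk1* lies above *Rgs9*.

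Whether partners fell by the same amount was asked within each retina, from the log2 ratio of 6 pairs of genes whose products act together. Of these 6 ratios, 2 separated NL from LD without overlap. The ratio of *Rgs9* to *Rgs9bp* was -0.28 ± 0.09 under NL and 0.54 ± 0.31 after LD (SD, n = 5 each), a rise of 0.82 or 1.77-fold (two-sided exact permutation test, p = 0.00794, adjusted over the 6 ratios p = 0.0238). It was between -0.36 and -0.16 in the NL retinas and between 0.52 and 0.83 in 4 LD retinas, with 0.04 in LD-8. The ratio of *Gucy2e* to *Gucy2f* rose from 1.34 ± 0.25 to 1.96 ± 0.11 (SD, n = 5 each), by 0.63 or 1.54-fold (exact permutation test, p = 0.00794, adjusted over the 6 ratios p = 0.0238). Here the NL retinas spread from 1.07 to 1.602, and the LD retinas from 1.77 in LD-8 to 2.03 in LD-1. Over the 8 retinas of shared numbers, or with the closest pairs averaged, both ratios had the smallest exact permutation p those samples allow, 0.0286, and missed the threshold once adjusted over the 6 ratios (p = 0.0857).
No difference beyond the spread between retinas was found for the other pairs that are both among the 10 genes. The ratio of *Grk1* to its inhibitor gene *Rcvrn* was -1.68 ± 0.11 under NL and -1.54 ± 0.23 after LD (SD, n = 5 each; exact permutation test, p = 0.270, adjusted p = 0.352). That of *Guca1a* to *Guca1b* was 1.03 ± 0.16 under NL and 1.008 ± 0.18 after LD (SD, n = 5 each; exact permutation test, p = 0.849 before and after adjustment).
The last 2 ratios set a recovery gene against a gene of the activation cascade. *Slc24a1* and *Cnga1*, whose products, the exchanger and the cGMP-gated channel, sit together in the rod membrane, had a log2 ratio of 1.33 ± 0.09 under NL and 1.38 ± 0.04 after LD (SD, n = 5 each; exact permutation test, p = 0.294, adjusted p = 0.352). This difference of 0.05 was 0.17 after quantile normalization, where it passed the test (exact permutation p = 0.0238, adjusted p = 0.0357). In the other 16 of 17 alternatives with a test it did not pass. *Cnga1* itself fell from 108 ± 2.53 to 24.4 ± 8.002 FPKM (SD, n = 5 each; adjusted p = 2.32e-05 in limma). For *Pdc* and *Gnb1*, a transducin subunit gene whose product phosducin binds, the ratio was -1.30 ± 0.04 under NL and -1.40 ± 0.09 after LD (SD, n = 5 each). This difference of -0.10 had an exact permutation p of 0.0476 and an adjusted p of 0.0952, and LD-8 lay within the NL range. Without LD-8 the difference was -0.13 (exact permutation p = 0.0159, adjusted p = 0.0317), and after quantile normalization it was -0.43 (exact permutation p = 0.00794, adjusted p = 0.0159). Adjusted over the 6 ratios, *Pdc*/*Gnb1* passed 0.05 in these 2 of 17 alternatives with a test and missed it in the other 15.

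**Figure D3:**
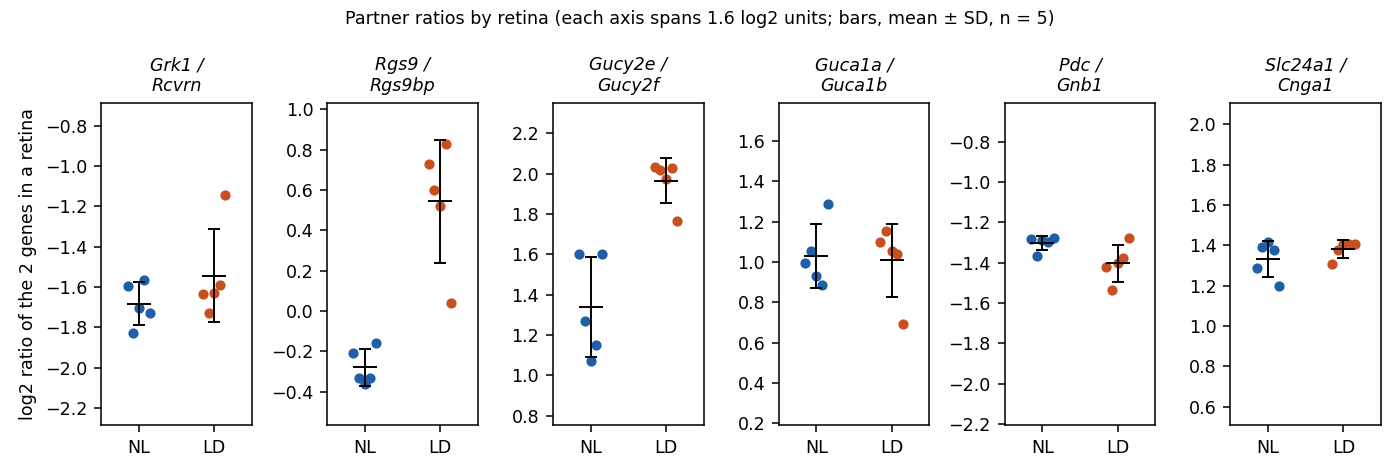
Log2 ratio of 2 partner genes in the 5 NL (blue) and 5 LD (orange) retinas, with mean and SD as bars and axes of equal span. The ratios *Rgs9*/*Rgs9bp* and *Gucy2e*/*Gucy2f* are higher in all LD retinas, and LD-8 lies nearest to NL in both.

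Other genes of recovery were listed for their roles. Of 10 such genes, 5 were called lower, none was called higher and 5 were not called, with a median log2 fold change of -0.80. Rod arrestin *Sag*, which caps the phosphorylated pigment, fell from 861 ± 92.1 to 338 ± 108 FPKM (SD, n = 5 each), by 1.40 on the log2 scale (limma adjusted p = 5.93e-04). Cone arrestin *Arr3* fell by 1.97 (limma adjusted p = 0.00854), and its LD values ran from 10.2 FPKM in LD-4 to 52.1 FPKM in LD-1. The phosphatase gene *Ppef2* fell by 1.54 and *Impdh1*, which encodes an enzyme of GTP synthesis, fell by 1.12 (adjusted p = 5.33e-04 and 3.67e-05 in limma). Not called were, among others, *Rd3*, whose product carries the cyclases to the outer segment (-0.44, limma adjusted p = 0.0270), and *Guk1*, which encodes guanylate kinase (-0.49, adjusted p = 7.80e-04 but under 2-fold).

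The closest relatives of the 10 genes give a view of other members of the same protein families. Of 38 relatives in 6 families (receptor kinases, neuronal calcium sensors, R7 regulators of G protein signalling, guanylate cyclases, phosducin-like genes and sodium-calcium exchangers), 36 were tested, and 0 were called by limma in either direction, with 17 of the 36 at an unadjusted p under 0.05 and 0 called by limma-voom on the reads. The median log2 fold change of the 36 was -0.09. An adjusted p under 0.01 in limma was reached by 4 of them, each with a change under 2-fold. The most abundant relative under NL in each family was *Grk2* (19.9 FPKM under NL, 21.02 after LD), the neuronal sensor gene *Vsnl1* (46.1 and 41.3), *Rgs11* of ON bipolar cells (24.8 and 28.3), *Gucy1b1* of the soluble cyclase (31.2 and 28.2), *Pdcl* (22.6 and 17.7) and *Slc24a3* (39.1 and 38.2). Of these 6 genes only *Pdcl* had an adjusted p under 0.01 (2.15e-04 in limma), with a log2 fold change of -0.35 that is under 2-fold. Under NL the 4 other than *Vsnl1* and *Slc24a3* were below *Gucy2f*, the least abundant of the 10 recovery genes.

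**Figure D4:**
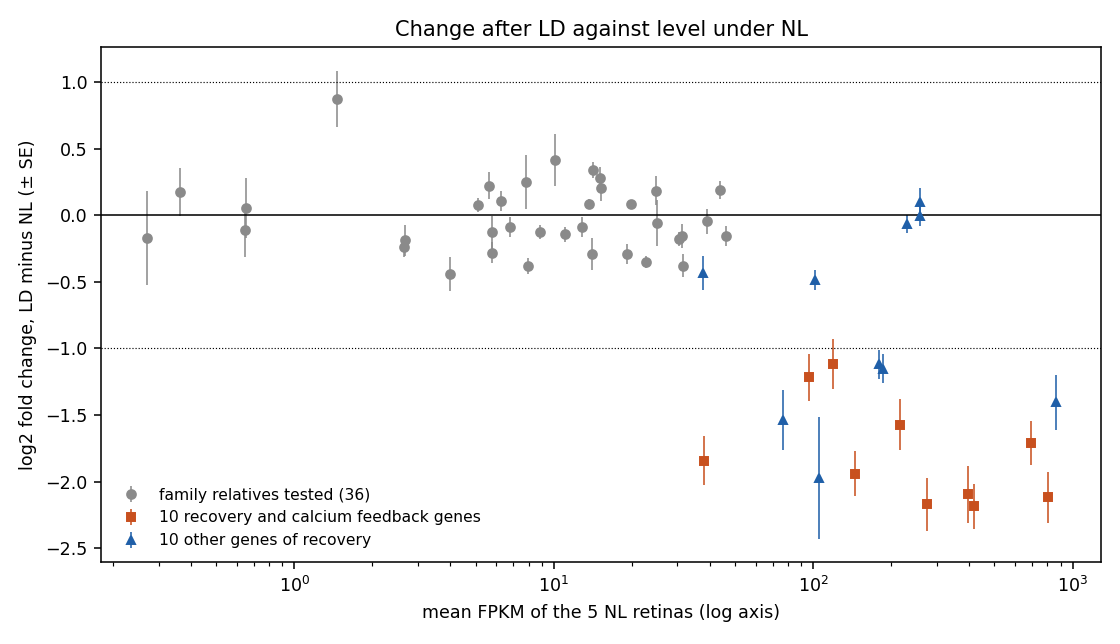
Log2 fold change, LD minus NL (± standard error), against the mean FPKM of the 5 NL retinas (log axis) for the 10 recovery and calcium feedback genes (squares), 10 other genes of recovery (triangles) and 36 relatives of the same families (circles), with dotted lines at a 2-fold change. The squares all lie below -1, and no circle passes either line.

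The activation side of the cascade is given for comparison. Of 9 rod activation genes all 9 were called lower, with a median log2 fold change of -2.08. The rod transducin gene *Gnat1* fell by 2.71 and *Pde6g*, the inhibitory phosphodiesterase subunit gene, by 2.44 (adjusted p = 3.03e-05 and 4.52e-05 in limma), beside 2.19 for *Pdc*, and the differences between these genes were not tested. Of 9 cone activation genes 3 were called lower, the opsin genes *Opn1sw* (-2.86) and *Opn1mw* (-2.18) and *Gnat2* of cone transducin (-1.46). Called higher was 1, *Gnb3*, a transducin subunit gene of cones that ON bipolar cells also use (270 ± 68.4 FPKM in the NL and 652 ± 176 in the LD retinas, SD, n = 5 each, limma adjusted p = 0.00127). The 5 not called had log2 fold changes of -0.96 to -0.48, and all 9 had an unadjusted limma p under 0.05. In this list the median change was -0.85.
Among 5307 protein-coding genes that averaged 10 FPKM or more under NL, the 5 whose values over the 10 retinas lay closest to the median of the 10 recovery genes were *Rom1*, *Gngt1*, *Cngb1*, *Fam161a* and *Pla2r1*. Their root mean square distance was 0.0766 to 0.123 on the log2 scale, over 10 retinas. The 10 genes themselves lay at 0.0499 (*Rgs9bp*) to 0.584 (*Rgs9*) from that median, and *Gucy2e* at 0.506. As the median is taken from these 10 genes, its middle genes lie close to it by construction.

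Markers of the retina's cells were read to check the tissue label and to see what else moved. All 8 photoreceptor markers were called lower, and their summed level was 3021 to 3641 FPKM in the NL and 583 to 1079 FPKM in the LD retinas. By limma 0 were called among 8 bipolar (431 to 522 FPKM under NL, 380 to 541 after LD), 6 amacrine (143 to 172, 129 to 160), 7 ganglion cell (233 to 273, 224 to 258), 4 horizontal cell (16.02 to 20.7, 13.2 to 17.7), 5 endothelial (39.6 to 50.6, 54.8 to 89.6) or 6 pigment epithelium markers (51.0 to 134, 57.3 to 111). Of 5 Müller glia markers only *Glul* was called lower, from a mean of 711 to 165 FPKM. The 5 summed to 817 to 1045 FPKM under NL, most of it *Glul*, and to 294 to 418 FPKM after LD. The other 4 were not called, with log2 fold changes of -0.52 to 0.50, and the median of all 5 was 0.08. Of 8 microglia markers 5 were called higher and 3 were not called, with log2 fold changes of -0.74 to 2.15 over the 8. Their sum was 19.7 to 34.3 FPKM under NL and 41.8 to 105 FPKM after LD. Lens markers summed to at most 1.24 FPKM and blood markers to at most 37.5 FPKM, with 0 calls in either and *Hba-a2* listed at 0 in all retinas. Over these 8 lists with 0 calls, 12 of 44 markers tested had an unadjusted p under 0.05 and 0 were called by limma-voom. The part of the microglia markers and of *Glul* in the changes of the 10 recovery genes was not tested.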

How the data were processed

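The authors deposited FPKM values per gene for the 10 retinas, normalized by the sequencing company, with gene positions and lengths. The submitters' processing notes name Bowtie2 2.0.6, TopHat2 2.0.9 and build mm8, but all 10 genes have the positions of GENCODE M21 on GRCm38. The counting program is not given in the sources used here, nor whether counting used strand, and the kit named in the labels does not mark it.
Multiplied by gene length, 100% of the FPKM values fell on whole steps (tolerance 0.01 reads), and counting the steps gave 18965090 to 26832535 reads per retina. The library sizes carry a factor of 0.951 to 0.968 in NL and 1.041 to 1.069 in LD retinas. From the FPKM, log2(FPKM + 0.1) was compared by limma 3.58.1 (R 4.3.3) with an intensity trend, for genes that reached 0.1 FPKM in 5 or more retinas, with Benjamini-Hochberg adjustment over all genes tested. Ratios and single genes were compared by exact permutation over retinas. The study calls the retinas of a group biological replicates, but the labels do not say that each is from a separate mouse, so p-values measure the spread between these samples. Of 20 within-group pairs of retinas, 3 had a chi-square of 2.52 to 3.41 per gene, above sampling noise, and the others 10.9 to 38.5. All retinas were kept, although these values cannot show whether the retinas of a close pair came from separate mice. The genes, lists and alternatives were chosen with earlier results of these data known. Named genes are the 10 genes, their ratio partners, in each list the called genes (at most 5 by size) and the most abundant under NL, the 5 genes closest in pattern, and, chosen after their values were seen, the uncalled genes of recovery and genes that overlap a member. Protein sequences were not analysed here. Some genes of the lists are not reported here.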

Additional observations from a re-analysis of the deposited data

Results flagged for a closer look

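Among 36 groups of 5 values (10 recovery genes, *Gnb1*, *Cnga1* and the 6 ratios, each under NL and LD), 4 held a retina far from the other 4, where chance gives 1.8. All 4 are ratios, and 3 of them concern LD-8. In LD-8 the log2 ratio of *Grk1* to *Rcvrn* was -1.141, against -1.73 to -1.59 in the other LD retinas. The ratio of *Gucy2e* to *Gucy2f* was 1.767 there, against 1.98 to 2.03. For *Guca1a* to *Guca1b* it was 0.6926, against 1.04 to 1.15. Relative to the median of the 10 genes in the same retina, *Rgs9* stood at 0.39 in LD-8 and at 0.79 to 1.03 in the other LD retinas, *Rcvrn* at -0.07 against 0.23 to 0.30, and *Guca1a* at -0.42 against -0.24 to -0.06. Under NL, the ratio of *Pdc* to *Gnb1* was -1.365 in NL-4 and -1.30 to -1.28 in the others.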

How the results depend on the processing

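Of 220 values (10 genes under 22 alternatives), 216 kept their direction and their call and 4 lost the call, all of *Rgs9*, and none changed sign. *Rgs9* was at -0.98 with FPKM without the factor per retina, an alternative chosen after seeing the data that moves the median of all genes from -0.01 to 0.11 (relative to that median, *Rgs9* was at -1.09 there and at -1.10 in the values reported). Over the 8 retinas of shared numbers *Rgs9* was at -1.02 with or without the replicate block (adjusted p = 0.0195 and 0.0106 in limma), and without LD-4 at -0.99998. The genes called among the 10 numbered 9 or 10 under all 23 alternatives. Over all genes, 1595 were called, 816 with a pseudocount of 1, 6818 with an adjusted p under 0.05 and no minimum fold change, 1182 over the 8 retinas of shared numbers without the replicate block and 808 over the same 8 with it, and 1379 to 1603 with 1 retina left out. Same-numbered retinas did not deviate together (correlations of -0.09 to 0.07 over 4 pairs), so the numbers were not taken to pair them, and a blocked exact test of a ratio over 4 pairs could not pass. The ratios *Rgs9*/*Rgs9bp* (0.72 to 0.95) and *Gucy2e*/*Gucy2f* (0.54 to 0.69) had an unadjusted exact p of 0.00794 to 0.0286 in the 17 alternatives with a test. Adjusted over the 6 ratios, both passed 0.05 in 15 and missed it in 2, the 8 retinas and the closest pairs averaged (exact permutation, adjusted p = 0.0857). *Pdc*/*Gnb1* had an unadjusted exact p above 0.05 with a pseudocount of 1 (-0.0934), over the 8 retinas without block (-0.0974), with the closest pairs averaged (-0.0770), and in 8 of 10 tests with 1 retina left out (all 10 from -0.132 to -0.0676). With quantile normalization this ratio changed by -0.43 (exact p = 0.00794), and *Grk1*/*Rcvrn* was at -0.12 (p = 0.278), *Guca1a*/*Guca1b* at 0.21 (p = 0.0556) and *Slc24a1*/*Cnga1* at 0.17 (p = 0.0238, exact permutation). The cause of these shifts was not tested.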
